A study of Mus musculus with 27 samples.

Results

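The transcripts described here belong to the phagocyte oxidative burst. Cybb, Cyba, Ncf1 and Ncf4 encode subunits of the NADPH oxidase NOX2, Nos2 encodes the inducible nitric oxide synthase, and Hmox1 encodes heme oxygenase 1. They were chosen by name, as the rows of the count table whose gene ID carries one of these symbols in the GENCODE M21 annotation, and they are 6 of the 55487 genes of the table. All 6 passed the filter on low counts (at least 10 counts in at least 4 of the 27 libraries), which left 20271 genes for testing.

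NOX2 is the enzyme with which neutrophils, monocytes, macrophages, and microglia make superoxide. Its membrane core is formed by the catalytic subunit gp91phox (Cybb) and its partner p22phox (Cyba), and the enzyme works once cytosolic subunits, among them p47phox (Ncf1) and p40phox (Ncf4), and the GTPase Rac have moved to that core. Inducible nitric oxide synthase makes nitric oxide from arginine in activated macrophages, and heme oxygenase 1 breaks heme down to biliverdin, iron, and carbon monoxide and is a classic target of the transcription factor NRF2. In the healthy brain, NOX2 subunits are found mainly in microglia.

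RNA-seq was performed on the contralateral cortex and hippocampus of male C57Bl/6J wild-type mice. Tissue was taken after 14 days of infusion (0.25 μl/hour) from an osmotic pump into the right lateral ventricle. The mice were 8 weeks old when they were assigned to the treatments. Mice received α-IgLON5#1, a pool of patient-derived antibodies against the neuronal surface protein IgLON5, a control human IgG (pCtrl), or phosphate-buffered saline (PBS). The paper describes pCtrl as IgG from healthy serum, whereas the labels describe a non-reactive monoclonal IgG. Cortex was sequenced from 5 PBS, 5 pCtrl, and 4 α-IgLON5#1 mice, and hippocampus from 5, 4, and 4. Each label starts with a number, read here as that of the mouse, which gives 14 mice, 13 of them with both tissues. The treated mice have numbers between 8 and 17, a range that also holds 3 pCtrl mice and 1 PBS mouse. The remaining controls have higher numbers. The antibody came from a single patient, so differences between patients were not measured.

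Library totals ran from 19385642 to 58550621 counts, and all levels are CPM, counts relative to the library total after TMM normalization. The labels name neurons as the cell type, but the libraries hold whole tissue. Summed over their markers, the libraries held 4620 to 7060 CPM of 5 neuronal, 1380 to 2820 CPM of 5 astrocyte and 332 to 766 CPM of 10 homeostatic microglia markers. In such bulk samples, more cells of a type and more RNA per cell cannot be told apart. A gene is called here at an adjusted p under 0.05 (edgeR quasi-likelihood test, Benjamini-Hochberg over all genes tested) together with a fold change above 2.

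The promoters of Cybb, Cyba, and Ncf1 are shown because they are those of the 4 subunit genes called in both tissues that the promoter table used here (RefSeq, GRCm38.p6) matched. It matched these 3 of the 6 genes. Each line gives the 250 bases before the RefSeq start site, 5′ to 3′ on the coding strand (minus for all 3), with matches to the searched motifs in capitals. The windows are chrX:9469325-9469574 for Cybb, chr8:122432941-122433190 for Cyba and chr5:134229626-134229875 for Ncf1.
Cybb: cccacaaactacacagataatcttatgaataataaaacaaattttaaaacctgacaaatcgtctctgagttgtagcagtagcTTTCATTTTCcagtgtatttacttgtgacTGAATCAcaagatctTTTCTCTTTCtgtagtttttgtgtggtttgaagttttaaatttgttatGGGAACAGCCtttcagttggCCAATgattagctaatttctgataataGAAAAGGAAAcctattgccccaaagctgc
Cyba: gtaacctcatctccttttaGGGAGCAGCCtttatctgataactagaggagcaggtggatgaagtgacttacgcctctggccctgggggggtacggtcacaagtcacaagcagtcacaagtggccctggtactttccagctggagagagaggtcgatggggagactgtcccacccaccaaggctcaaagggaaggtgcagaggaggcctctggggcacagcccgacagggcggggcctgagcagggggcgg
Ncf1: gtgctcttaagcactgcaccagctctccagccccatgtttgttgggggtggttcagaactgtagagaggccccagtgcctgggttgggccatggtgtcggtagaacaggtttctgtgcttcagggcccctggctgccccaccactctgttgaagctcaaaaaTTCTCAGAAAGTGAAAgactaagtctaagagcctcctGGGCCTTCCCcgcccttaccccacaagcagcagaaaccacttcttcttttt

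The motifs, searched on both strands, were GAAA repeated after any 2 bases (the pattern of interferon response elements, in 2.98% of 32851 RefSeq promoters), TTCNNNGAA (STAT sites, 7.02%), TGANTCA (AP-1, 6.75%), GGGA and CC with any 4 bases between them (NF-κB, 17.6%), CCAAT (33.8%), GAGGAA (a core of PU.1 and other ETS sites, 23.3%) and TGACNNNGC (the NRF2 response element, 10.2%). The interferon pattern occurred 3 times in the Cybb window, the nearest match lying 29 to 20 bases before the start, and once in Ncf1, where it shares bases with the STAT pattern. The Cybb window also held AP-1 and CCAAT matches. The NF-κB pattern was present in all 3 windows, and GAGGAA and TGACNNNGC matched in none of them. These are matches of letters, with no measurement of binding.

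Cybb, on chromosome X (GRCm38, 9435252 to 9487771, minus strand, with the RefSeq start inside the GENCODE gene), moved more than any other of the 6 genes. In the hippocampus, the α-IgLON5#1 libraries of mice 8, 9, 16, and 17 held 24.5, 9.18, 5.15, and 11.6 CPM. The pCtrl hippocampi (mice 10, 15, 37, and 75) held 1.33, 2.76, 1.69, and 2.14 CPM, and the PBS hippocampi (mice 14, 32, 33, 38, and 74) 0.546, 1.15, 1.44, 1.54, and 0.895 CPM. The lowest treated library was thus above the highest control library. Cybb was higher by 2.66 ± 0.545 (log2 fold change ± SE, a 6.30-fold difference) than in pCtrl (edgeR, adjusted p = 0.00295) and by 3.48 ± 0.534 than in PBS (edgeR, adjusted p = 6.84e-05).

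In the cortex, Cybb reached 45.3, 15.7, 3.40, and 7.82 CPM in mice 8, 9, 16, and 17. The pCtrl cortices (mice 10, 11, 15, 37, and 75) held 1.19, 0.586, 2.05, 0.948, and 1.73 CPM, and the PBS cortices (mice 14, 32, 33, 38, and 74) 0.783, 1.01, 1.08, 1.45, and 1.35 CPM. The treated libraries were again all above the controls, but they spanned a 13.3-fold range, the widest of any gene and group here. The log2 fold change was 3.74 ± 0.533 against pCtrl (13.3-fold, edgeR, adjusted p = 7e-05) and 3.99 ± 0.540 against PBS (edgeR, adjusted p = 2.71e-05). Without the cortex of mouse 8 it was 2.72 ± 0.436 against pCtrl (edgeR, adjusted p = 0.000539).

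Cyba, which stabilizes the NOX2 core and also pairs with other NOX enzymes, lies on chromosome 8 (122424776 to 122432930, minus strand). The hippocampi of mice 8, 9, 16, and 17 held 14.9, 17.4, 10.4, and 11.0 CPM of Cyba. The pCtrl hippocampi held 4.35, 5.75, 5.23, and 5.50 CPM and the PBS hippocampi 5.05, 3.72, 3.84, 4.51, and 3.77 CPM, in the order of mice given for Cybb. Treated and control libraries did not overlap, and the treated ones lay within a 1.68-fold range. The rise was smaller than that of Cybb, 1.36 ± 0.199 against pCtrl (2.56-fold, edgeR, adjusted p = 6.67e-05) and 1.68 ± 0.189 against PBS (edgeR, adjusted p = 7.83e-07).

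In the cortex, Cyba measured 13.9, 11.9, 6.88, and 7.33 CPM in the treated mice, 3.91, 4.53, 4.87, 3.26, and 5.49 CPM with pCtrl, and 3.82, 4.17, 4.20, 5.20, and 4.10 CPM with PBS. Mice 8 and 9 were high and mice 16 and 17 lay close above the top control library. The log2 fold change was 1.17 ± 0.189 against pCtrl (2.26-fold, edgeR, adjusted p = 0.00026) and 1.21 ± 0.188 against PBS (edgeR, adjusted p = 0.000134). Without the cortex of mouse 8 the difference from pCtrl was 0.97 (edgeR, adjusted p = 0.00295), under the fold threshold. Cyba overlaps Gm20388, annotated on the other strand, and the strand setting of the counting is not given in the sources used here.

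**Figure D1:**
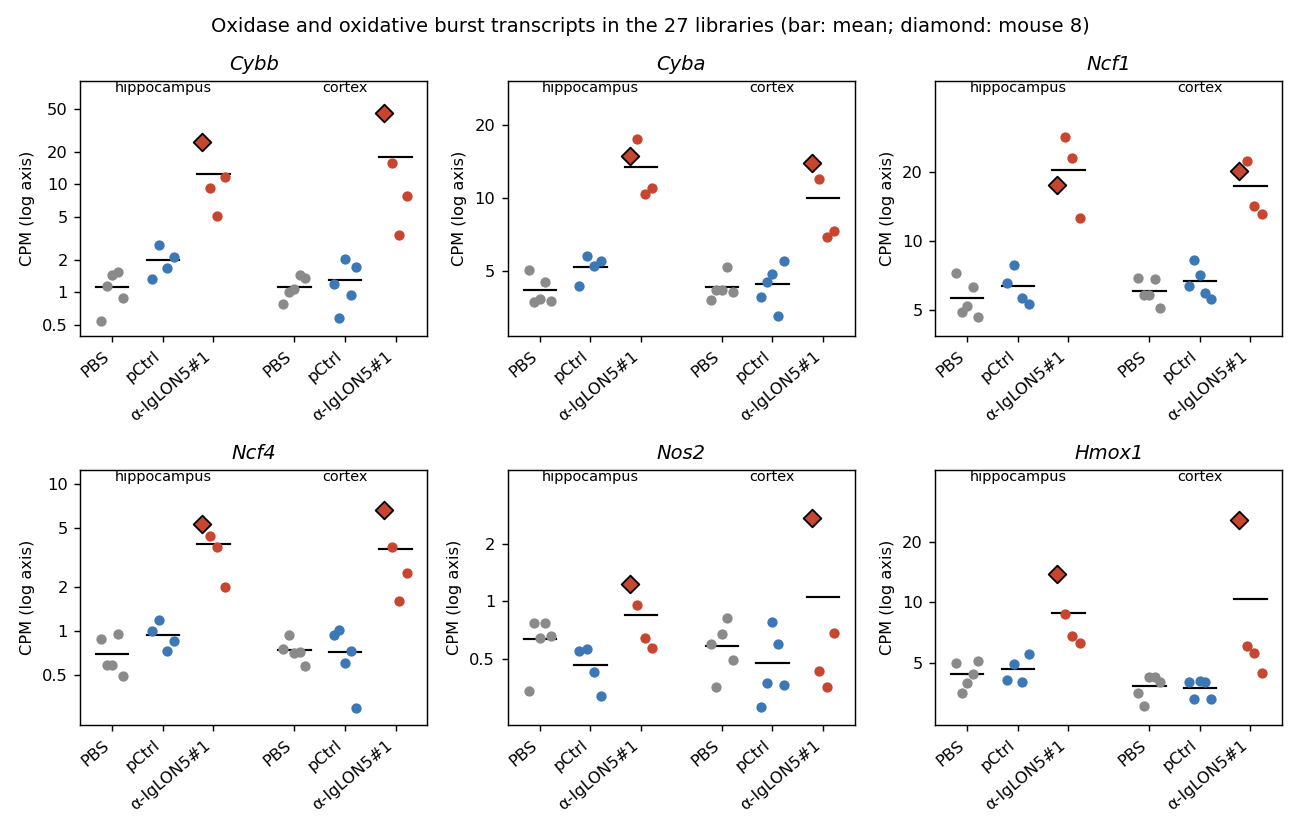
Level of each gene in CPM (log axis) in every library, grouped by tissue and by infusion (gray, PBS; blue, pCtrl; red, α-IgLON5#1), with the group mean as a bar and mouse 8 as a diamond. For Cybb, Cyba, Ncf1, and Ncf4 the red points stand above all control points in both tissues, whereas for cortical Nos2 and Hmox1 mouse 8 stands far above the other red points.

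Ncf1, the organizer subunit that carries the others to the membrane, lies on chromosome 5 (134220053 to 134229625, minus strand) and overlaps Gtf2ird2 on the other strand. The treated hippocampi held 17.6, 28.4, 23, and 12.6 CPM of Ncf1 in mice 8, 9, 16, and 17. With pCtrl the values were 6.58, 7.86, 5.66, and 5.33 CPM, and with PBS 7.23, 4.91, 5.19, 6.29, and 4.69 CPM. Here mouse 9 was highest and the groups did not overlap. Ncf1 rose by 1.67 ± 0.206 against pCtrl (3.19-fold, edgeR, adjusted p = 5.42e-06), the smallest adjusted p of the 6 genes in this comparison, and by 1.85 ± 0.194 against PBS (edgeR, adjusted p = 2.95e-07).

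Cortical Ncf1 measured 20.2, 22.3, 14.2, and 13.1 CPM in the treated mice, 6.38, 8.30, 7.13, 5.93, and 5.59 CPM with pCtrl, and 6.89, 5.79, 5.81, 6.84, and 5.11 CPM with PBS. Mouse 9 was again the highest, and the treated libraries differed among themselves by only 1.70-fold. The log2 fold changes were 1.39 ± 0.193 against pCtrl (2.62-fold, edgeR, adjusted p = 5.01e-05) and 1.52 ± 0.193 against PBS (edgeR, adjusted p = 1.25e-05). Without the cortex of mouse 8 the first of these was 1.31 (edgeR, adjusted p = 0.000429).

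Ncf4, whose product binds phosphatidylinositol 3-phosphate and sustains oxidase activity on phagosomes, lies on chromosome 15 (78244801 to 78262580, plus strand). It was scarce in control tissue, with 9 to 63 counts per library. Treated hippocampi held 5.36, 4.45, 3.74, and 2.01 CPM, against 1.00, 1.18, 0.738, and 0.859 CPM with pCtrl and 0.887, 0.591, 0.586, 0.950, and 0.494 CPM with PBS. The groups did not overlap, and the rise was 2.01 ± 0.354 against pCtrl (4.03-fold, edgeR, adjusted p = 0.000614) and 2.47 ± 0.344 against PBS (edgeR, adjusted p = 1.82e-05).

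In the cortex, Ncf4 measured 6.71, 3.72, 1.6, and 2.47 CPM in the treated mice, 0.939, 1.01, 0.612, 0.737, and 0.299 CPM with pCtrl, and 0.752, 0.946, 0.706, 0.725, and 0.577 CPM with PBS. Mice 8 and 9 were high, as for Cyba, and all treated libraries exceeded all controls. The log2 fold change was 2.35 ± 0.347 against pCtrl (5.09-fold, edgeR, adjusted p = 1e-04) and 2.28 ± 0.341 against PBS (edgeR, adjusted p = 8.93e-05). It was 1.86 against pCtrl without the cortex of mouse 8 (edgeR, adjusted p = 0.000906).

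Nos2, on chromosome 11 (78920787 to 78960254, plus strand), was scarce throughout, with 7 to 100 counts per library. Treated hippocampi held 1.23, 0.958, 0.644, and 0.573 CPM, against 0.552, 0.564, 0.428, and 0.319 CPM with pCtrl and 0.341, 0.771, 0.645, 0.772, and 0.659 CPM with PBS. All treated libraries lay above pCtrl, mice 8 and 9 also above the highest PBS library, and mice 16 and 17 within the PBS range. The log2 fold change was 0.81 ± 0.481 against pCtrl (edgeR, adjusted p = 0.341) and 0.35 ± 0.451 against PBS (edgeR, adjusted p = 0.804), and neither was called.

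In the cortex, mouse 8 alone held 2.72 CPM of Nos2, whereas mice 9, 16, and 17 held 0.433, 0.357, and 0.681 CPM. The pCtrl cortices held 0.282, 0.373, 0.777, 0.597, and 0.366 CPM and the PBS cortices 0.595, 0.355, 0.672, 0.820, and 0.495 CPM. All treated mice but mouse 8 were thus within the range of the controls. The difference from pCtrl was 1.08 ± 0.444 (edgeR, adjusted p = 0.218) with mouse 8 and 0.03 ± 0.347 without it (edgeR, adjusted p = 0.990).

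Hmox1, on chromosome 8 (75093621 to 75100589, plus strand), was the only gene of the 6 called in the cortex and not in the hippocampus. Treated hippocampi held 13.8, 8.73, 6.77, and 6.30 CPM, against 4.13, 4.96, 4.02, and 5.57 CPM with pCtrl and 4.98, 3.54, 3.96, 4.39, and 5.11 CPM with PBS. Every treated library stood above every control, yet the log2 fold changes of 0.92 ± 0.359 against pCtrl (edgeR, adjusted p = 0.121) and 1.01 ± 0.340 against PBS (edgeR, adjusted p = 0.104) did not pass. Fitted on these libraries with those of PBS alone, the second gave an adjusted p of 0.0265 (edgeR).

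Cortical Hmox1 measured 25.7 CPM in mouse 8 and 6.10, 5.62, and 4.46 CPM in mice 9, 16, and 17. The pCtrl cortices held 4.01, 3.30, 4.07, 4.04, and 3.33 CPM and the PBS cortices 3.54, 3.05, 4.27, 4.26, and 4.04 CPM. The 3 other treated mice lay just above the controls, and mouse 8 far above them. The log2 fold change of 1.47 ± 0.341 against pCtrl (2.77-fold, edgeR, adjusted p = 0.0108) fell to 0.51 ± 0.196 without the cortex of mouse 8 (edgeR, adjusted p = 0.273). The corresponding values against PBS were 1.45 ± 0.339 (edgeR, adjusted p = 0.0109) and 0.49 (edgeR, adjusted p = 0.467). The cortical call therefore rested on 1 library. It was also lost when only the groups compared were fitted (edgeR, adjusted p = 0.151 against pCtrl and 0.232 against PBS).

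Counted together, 4 of the 6 genes (Cybb, Cyba, Ncf1, and Ncf4) rose in the hippocampus against pCtrl, where 2.21% of all genes tested rose. The same 4 rose against PBS (2.56% of all genes). In the cortex, 5 of 6 rose against pCtrl (2.14% of all genes) and 5 of 6 against PBS (2.24%), and 3 of 6 (Cybb, Ncf1, and Ncf4) against pCtrl without mouse 8, where 1.08% of all genes rose. None fell against pCtrl or PBS (in the hippocampus 0.237% and 0.109% of all genes fell, and in the cortex 0.0247% and 0.00493%). In the hippocampus all 6 genes had every α-IgLON5#1 library above every pCtrl library, a pattern shown by 6.68% of all genes, and 5 of 6 did so in the cortex (3.68% of all genes). Against PBS, 5 of 6 stood above every PBS library in each tissue, Nos2 being the exception (4.49% of all genes in the hippocampus and 3.14% in the cortex). The median log2 fold change of the 6 was 1.51 in the hippocampus and 1.43 in the cortex against pCtrl, beside 0.00 and -0.01 over all genes tested. The comparisons with pCtrl and PBS share their treated libraries and are not independent of each other.

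**Figure D2:**
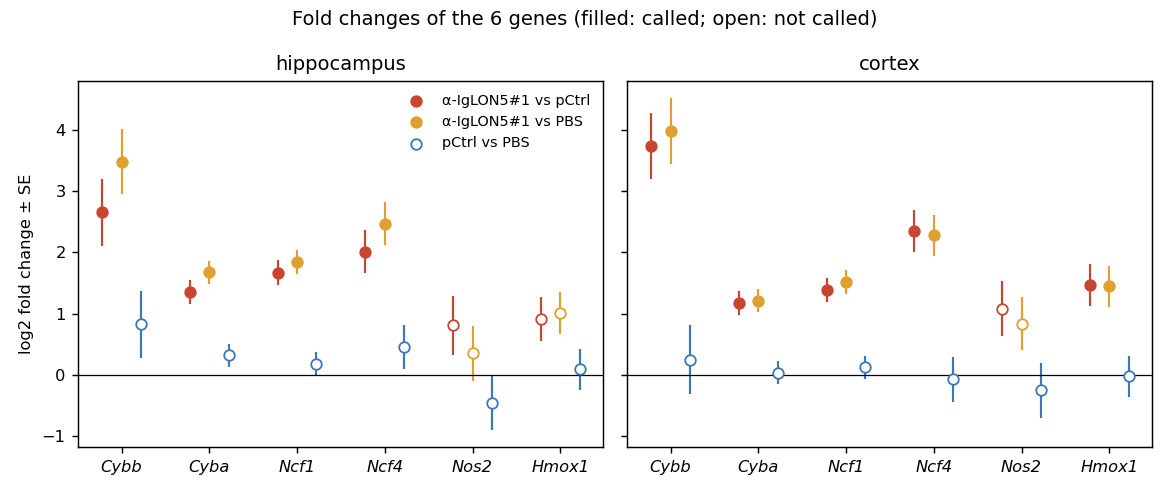
Log2 fold change ± SE of each gene (horizontal axis) in hippocampus (left) and cortex (right) for α-IgLON5#1 against pCtrl (red), α-IgLON5#1 against PBS (yellow) and pCtrl against PBS (blue), from the edgeR fit over 6 groups. Filled points are called (adjusted p under 0.05 and fold above 2) and open points are not, so that Hmox1 is filled in the cortex alone and no blue point is filled.

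Between the control infusions, 0 of the 6 genes were called by edgeR or DESeq2, and 0 had an unadjusted p under 0.05 (14% of all genes in the hippocampus and 8.14% in the cortex). In the hippocampus 0.0493% of all genes rose and 0.0148% fell between pCtrl and PBS, and in the cortex 0 genes were called in either direction by edgeR. The log2 differences between pCtrl and PBS ran from -0.46 (Nos2) to 0.83 (Cybb) in the hippocampus and from -0.25 (Nos2) to 0.25 (Cybb) in the cortex. The difference for hippocampal Cybb was the largest of these and had an SE of 0.544 (edgeR, adjusted p = 0.536).

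The tissues were close to each other at baseline. The PBS cortices differed from the PBS hippocampi by -0.20 to 0.11 (log2), and 0 of the 6 genes were called in either direction by edgeR or DESeq2 or had an unadjusted p under 0.05 (35.9% of all genes did), whereas 2.70% of all genes were higher and 2.87% lower in cortex. The difference of the treatment effects between tissues, tested as an interaction against pCtrl (hippocampus minus cortex), was -1.08 ± 0.740 for Cybb, 0.18 ± 0.273 for Cyba, 0.28 ± 0.280 for Ncf1, -0.34 for Ncf4, -0.27 ± 0.658 for Nos2 and -0.55 ± 0.494 for Hmox1. None passed (edgeR, adjusted p from 0.635 to 0.928), none had an unadjusted p under 0.05 (10.6% of all genes did), and 0 of all genes passed. Against PBS, 0 of the 6 passed in edgeR or DESeq2 or had an unadjusted p under 0.05 (0.00493% of all genes passed higher in the hippocampus, 0% lower, and 3.32% had such a p). Thus Hmox1 and Cybb are not shown to respond differently in the 2 tissues. Without the cortex of mouse 8 the Hmox1 interaction was 0.41, with the sign turned, and the Cybb interaction was -0.064. Without the hippocampus of mouse 8 the Cybb interaction was -1.62 (edgeR, adjusted p = 0.467).

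Levels between genes were compared per kilobase of exon (RPKM). In PBS cortex the mean ± SD was highest for Cyba (4.14 ± 0.508), followed by Hmox1 (2.19 ± 0.302), Ncf1 (1.66 ± 0.208), Ncf4 (0.367 ± 0.0657), Cybb (0.195 ± 0.0463) and Nos2 (0.133 ± 0.0399). Neighbors overlapped for Hmox1 and Ncf1 and for Cybb and Nos2, and not for the others. The order of the means in PBS hippocampus was the same, from 4.02 ± 0.561 for Cyba to 0.145 ± 0.0399 for Nos2, with overlap between Ncf4 and Cybb and between Cybb and Nos2. In treated hippocampus the mean of Cybb (2.17 ± 1.44) was above that of Ncf4 (1.93 ± 0.704). Their ranges overlapped, and the medians had the opposite order (1.79 for Cybb and 2.03 for Ncf4). Cyba (12.9 ± 3.20), Ncf1 (5.57 ± 1.87) and Hmox1 (5.09 ± 1.97) remained above both in mean level. In treated cortex the means were 9.64 ± 3.32 for Cyba, 5.97 ± 5.80 for Hmox1, 4.77 ± 1.22 for Ncf1, 3.11 ± 3.25 for Cybb, 1.79 ± 1.11 for Ncf4 and 0.237 ± 0.254 for Nos2. Mouse 8 held 14.6 RPKM of Hmox1 there, and the median of Hmox1 (3.35) was below that of Ncf1 (4.70). The mean level of Cybb was thus below that of its partner Cyba in every group.

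Among the 4 α-IgLON5#1 mice, mouse 8 or mouse 9 held the highest level of each gene, and the order of the others varied. Over the 12 sets of 1 gene in 1 tissue, mouse 8 was the highest in 9 and mouse 9 in the other 3, and the lowest was mouse 16 in 6 and mouse 17 in 6. Mouse 9 led for Ncf1 in both tissues and for Cyba in the hippocampus. The 2 libraries of a mouse share the animal, so these sets are not independent, and the choice to describe mice 8 and 9 was made with their values known.

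Because the treated mice all fall between numbers 8 and 17, the comparison with pCtrl was repeated within those numbers, which left 3 pCtrl cortices and 2 pCtrl hippocampi. The log2 fold changes in the hippocampus were 2.60 for Cybb, 1.4 for Cyba, 1.49 for Ncf1, and 1.81 for Ncf4, and those in the cortex 3.75, 1.17, 1.27, and 2.12. Hmox1 was at 0.96 in the hippocampus and 1.46 in the cortex, and Nos2 at 0.56 and 1.07. In this fit 0 of the 6 genes were called in either tissue (edgeR, adjusted p from 0.0665 to 0.802). Here 0.242% of all genes were called higher in the hippocampus and 0.0444% in the cortex.

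**Figure D3:**
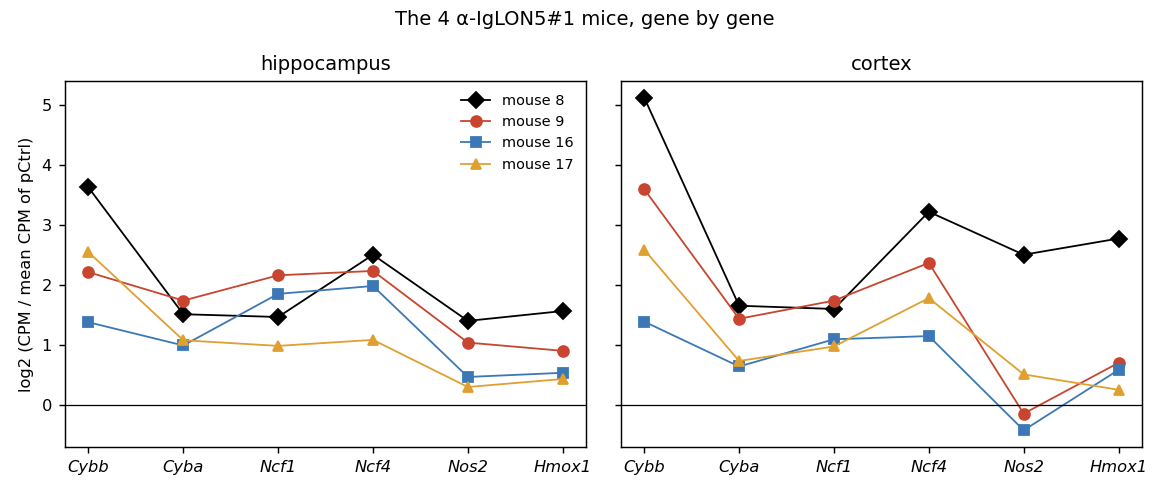
Log2 ratio of each α-IgLON5#1 library to the mean pCtrl level of its tissue, for the 6 genes (horizontal axis) in hippocampus (left) and cortex (right), with 1 line per mouse. Mouse 8 (black diamonds) leads for Cybb, Ncf4, Nos2, and Hmox1 in both tissues, and in the cortex its Nos2 and Hmox1 stand well apart from those of mice 9, 16, and 17.

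Markers of several cell types also differed between the groups. All 6 pan-myeloid markers (Aif1, Itgam, Ptprc, Adgre1, Tyrobp, and Spi1) rose in the hippocampus and 5 of 6 in the cortex against pCtrl, with Tyrobp at 0.92 in the cortex. Their summed level was 90.2 to 198 CPM in treated and 35.5 to 46.0 CPM in pCtrl hippocampi, and 71.4 to 173 against 35.5 to 47.9 CPM in the cortex. The 10 homeostatic microglia markers changed less, with 0 called by edgeR in either tissue (6 and 5 of 10 had an unadjusted p under 0.05). In the hippocampus these 6 were all higher, but in the cortex 3 were higher, among them Cx3cr1 (0.44), and 2 lower, P2ry12 (-0.43) and Gpr34 (-0.55). Their median difference was 0.48 (log2) in the hippocampus, where 5 passed the adjusted p alone, and 0.09 in the cortex, where 0 did. Of 8 markers of border macrophages and monocytes, 2 rose (Ms4a7 and Ly6c2) and 1 fell (Lyve1) in the hippocampus, and in the cortex Ccr2 also rose. B cell markers rose too, 4 of 5 in the hippocampus and 2 of 5 in the cortex, and of 5 astrocyte markers Gfap alone rose in each tissue. Of 5 T cell markers 2 were abundant enough to test, and 1 of these rose in each tissue, Cd4 in the hippocampus (1.67, edgeR, adjusted p = 0.0128) and Cd3g in the cortex (3.41, edgeR, adjusted p = 0.00683). Several of these calls needed mouse 8. Without its library of the tissue compared, 1 of 5 B cell markers (Cd79b) was called in each tissue, Cd4 was not called in the hippocampus (edgeR, adjusted p = 0.0654), and in the cortex Ccr2 was not called and Gfap, at 0.98, was under the fold threshold. Cd3g in the cortex was still called (edgeR, adjusted p = 0.0476), as were the same numbers of pan-myeloid markers, 6 and 5. The T cell markers summed to 1.18 to 3.59 CPM in treated and 0.638 to 1.34 CPM in pCtrl hippocampi, and to 1.77 to 3.56 against 0.765 to 1.33 CPM in the cortex. None of the 6 tested neutrophil markers was called by edgeR in either tissue against pCtrl (0 had an unadjusted p under 0.05), and 4 of the 10 listed, Ly6g and Elane among them, were too scarce to test.

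Within the treated group, the neutrophil markers summed to 13.9 CPM in the cortex of mouse 8 and to 0.974, 1.33, and 2.49 CPM in mice 9, 16, and 17, against at most 5.16 CPM in a control cortex. The border macrophage and monocyte markers reached 61.2 CPM in that library and 12 to 31.8 CPM in the other treated cortices. Erythrocyte markers summed to 8.86 CPM there and to 2.69 to 5.83 CPM in the other treated cortices, with up to 8.71 CPM in controls. In the hippocampus of mouse 8 the sums were 8.47 CPM for neutrophil and 47.2 CPM for border macrophage and monocyte markers, also the highest of that group. Among the tested neutrophil markers, S100a8 and S100a9 varied most between treated cortices (SD 1.85 and 3.49 CPM). The SD of Mpo, Camp, Ngp, and Ltf was at most 0.265 CPM. Against pCtrl, cortical Ngp (-0.68), Ltf (-0.73), and Mpo (-0.36) were lower, and S100a8, S100a9, and Camp higher, none of them called. Ly6g was at 0 in all treated cortices. The treated cortex with the highest Hmox1, Nos2, and Cybb thus also had the highest sums of these marker lists, but not evenly over the neutrophil genes. What part this had in the levels of the 6 genes was not tested.

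To set the oxidase genes against the myeloid RNA in each library, the fit was repeated with a marker score as offset. The first score is a mean over microglia markers whose differences lay on both sides of 0 in the cortex. Relative to the homeostatic microglia markers, Cybb was higher by 2.49 ± 0.584, Ncf4 by 1.71, Ncf1 by 1.30, and Cyba by 1.04 in the hippocampus against pCtrl, and all 4 were called (1.77% of all genes were called higher). Against PBS the same number, 4, was called (2.03% of all genes). In the cortex Cybb (3.86), Ncf4 (2.41), Hmox1 (1.57), Ncf1 (1.41), and Cyba (1.22) were called (2.05% of all genes), and 5 against PBS (2% of all genes). Without the cortex of mouse 8, 3 genes were called there against pCtrl (0.888% of all genes), and Cyba (0.91) and Hmox1 (0.43) were not. Cybb was still called but smaller, at 2.67 in that fit and at 1.70 in the hippocampus without the hippocampus of mouse 8. The hippocampal call of Cyba was lost without mouse 8 (0.81) and without the pCtrl library of mouse 10 (1.00), both under the fold threshold, and the cortical call of Hmox1 was also lost without the pCtrl library of mouse 11 (edgeR, adjusted p = 0.0554). The median of all genes moved to -0.32 in the hippocampus and -0.01 in the cortex on this scale. With all libraries, the 4 NOX2 subunits thus rose by more than the homeostatic microglia markers.

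Relative to the pan-myeloid markers, the picture was different. Only Cybb was still called higher against pCtrl, by 1.05 ± 0.419 in the hippocampus (edgeR, adjusted p = 0.017, with 0.646% of all genes called higher) and by 2.0 ± 0.406 in the cortex (edgeR, adjusted p = 2.14e-05, 0.918% of all genes). Cyba (-0.37 and -0.33) and Ncf1 (-0.11 and -0.07) were near or just below 0, and Ncf4 was at 0.26 and 0.75, which was not called. Against PBS, Cybb was higher by 1.62 in the hippocampus and 2.08 in the cortex, both called (0.819% and 0.908% of all genes), and Nos2 was called lower in the hippocampus (-1.58), as were 95.9% of all genes. On this scale the median gene stood at -1.69 in the hippocampus and -1.38 in the cortex against pCtrl, because the markers themselves had risen. For Cyba, Ncf1, and Ncf4 no difference from those markers was called.

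The excess of Cybb over the pan-myeloid markers was uneven among the treated mice. Log2 CPM of Cybb minus the marker score was 0.35, -1.68, -2.07, and -0.21 in the hippocampi of mice 8, 9, 16, and 17, against -2.04 to -1.37 with pCtrl and -3.40 to -1.68 with PBS. Only mice 8 and 17 were thus above the control hippocampi. In the cortex the values were 0.91, -0.69, -1.68, and -0.75, against -3.56 to -1.67 with pCtrl and -2.72 to -1.95 with PBS, so that mouse 16 lay within the pCtrl range and all 4 treated cortices above the PBS range. Fits without each α-IgLON5#1 library in turn were added after these values were seen. The hippocampal difference from pCtrl was 0.54 ± 0.419 without mouse 8 (edgeR, adjusted p = 0.207) and 0.90 without mouse 17 (edgeR, adjusted p = 0.0540), and neither was called, so the hippocampal call against pCtrl depended on each of these libraries. In the cortex Cybb was called in all 4 such fits, with 1.26 ± 0.384 without mouse 8 (edgeR, adjusted p = 0.00296, 0.587% of all genes called higher) and 2.13 to 2.28 without one of the others. Against PBS it was called in all 4 fits in each tissue (1.11 to 1.90 in the hippocampus and 1.33 to 2.35 in the cortex). Without mouse 8, Nos2 (-1.14) and Hmox1 (-1.11) were called lower in the hippocampus against pCtrl, as were 94.2% of all genes, and Nos2 (-1.20) in the cortex, as were 80.7% of all genes.

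**Figure D4:**
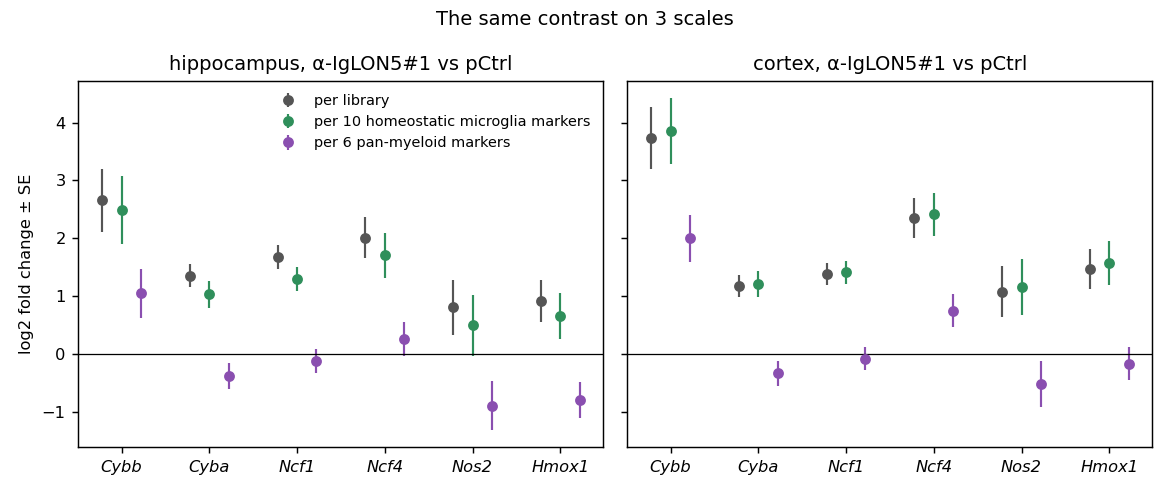
Log2 fold change ± SE of α-IgLON5#1 against pCtrl in hippocampus (left) and cortex (right) for each gene on 3 scales: per library (gray), relative to 10 homeostatic microglia markers (green) and relative to 6 pan-myeloid markers (purple). The green points lie near the gray ones, and the purple points lie lower, with Cybb at 1.05 and 2.0 as the only gene called on that scale.

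The remaining oxidase genes were taken from a list of 17 other subunits and regulators, of which 11 were abundant enough to test. Of these, 4 rose against pCtrl in the hippocampus and 3 in the cortex, with Rac2, Hvcn1, and Vav1 called in both. Rac2, the GTPase of the phagocyte oxidase, rose in the hippocampus by 2.65 ± 0.370 (16.2 ± 8.49 against 2.56 ± 0.250 CPM, mean ± SD, edgeR, adjusted p = 3.26e-05). The proton channel gene Hvcn1, which compensates the charge that the oxidase moves, rose by 2.04 (edgeR, adjusted p = 1.65e-06), and the exchange factor Vav1 by 1.75 (edgeR, adjusted p = 1.75e-05). Ubiquitous Rac1 stood at 0.02 ± 0.061. The list's median was 0.76.

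In the cortex Rac2 rose by 2.35 (edgeR, adjusted p = 9.48e-05), Vav1 by 1.61, and Hvcn1 by 1.42. These 3 were also called without the cortex of mouse 8. As for Ncf1, the highest Rac2 level was that of mouse 9, with 22.7 CPM in its cortex and 19.3, 4.86, and 7.24 CPM in those of mice 8, 16, and 17. None of the listed oxidase genes fell in either tissue against pCtrl. Duox1, a NOX enzyme of epithelia, stood at -0.63 ± 0.417 in the hippocampus.

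The genes that make or use the substrate and cofactor of Nos2 changed little. Of 13 genes of nitric oxide synthesis and arginine use, 0 were called in the hippocampus by edgeR (3 had an unadjusted p under 0.05) and 1 in the cortex, where 0 were called without mouse 8. The neuronal synthase Nos1 was at 0.34 ± 0.116 in the hippocampus (edgeR, adjusted p = 0.0697) and 0.41 ± 0.110 in the cortex (edgeR, adjusted p = 0.0343, under the fold threshold), and the endothelial synthase Nos3 at 0.17 and -0.08. Against PBS, cortical Nos1 was at -0.41 ± 0.105 with pCtrl, where every library lay below every PBS library (edgeR, adjusted p = 0.399), and at -0.0011 ± 0.110 with α-IgLON5#1 (edgeR, adjusted p = 0.999).

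The NRF2 response, to which Hmox1 belongs, changed little as a list. Of 13 other NRF2 response genes, 0 were called in either tissue against pCtrl by edgeR (2 in each had an unadjusted p under 0.05), and the list medians were -0.04 in the hippocampus and 0.00 in the cortex. Nfe2l2, which encodes NRF2, was at 0.36 ± 0.153 and 0.37 ± 0.145, and Nqo1, a quinone reductase often used as an NRF2 readout, at -0.32 and -0.31. Hmox2, the constitutive heme oxygenase, was at 0.08 ± 0.064 and -0.04 ± 0.061. Among all 11 genes of heme and iron handling 0 were called by edgeR (2 in the hippocampus and 1 in the cortex had an unadjusted p under 0.05), with the haptoglobin gene Hp at 1.55 (edgeR, adjusted p = 0.249) and 2.48 (edgeR, adjusted p = 0.0671). Of 15 genes that remove superoxide and peroxides, among them the superoxide dismutases, catalase, and the peroxiredoxins, 0 were called by edgeR in either tissue (3 in the hippocampus and 0 in the cortex had an unadjusted p under 0.05). In the hippocampus Gclm (-0.34) and Sod2 (-0.22) passed the adjusted p alone.

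**Figure D5:**
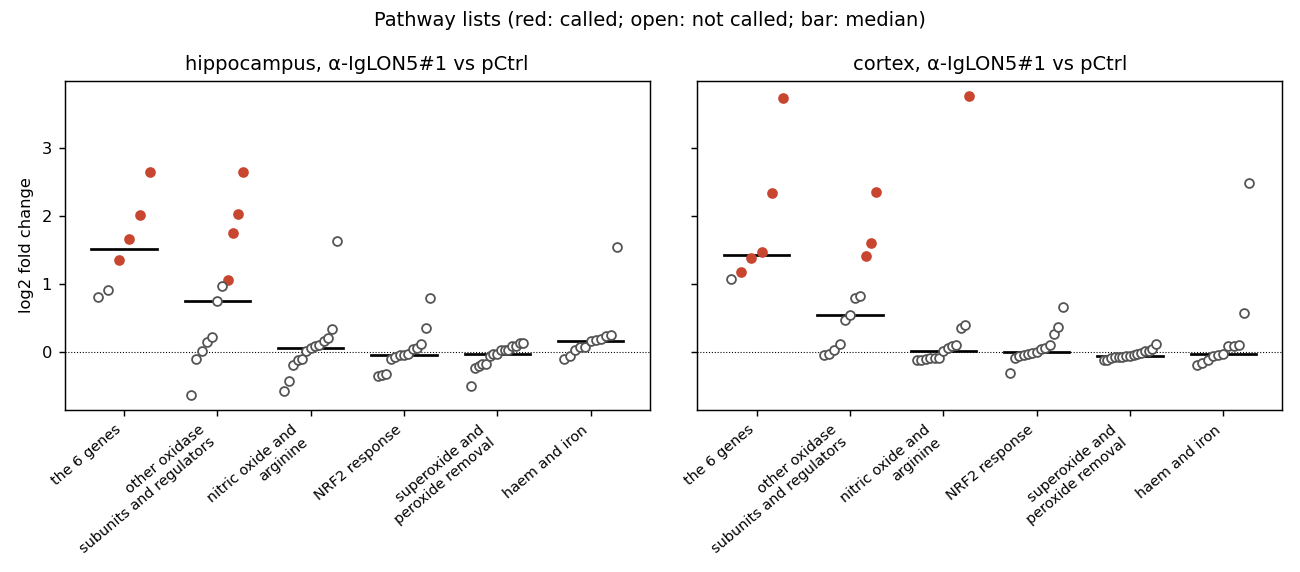
Log2 fold change of α-IgLON5#1 against pCtrl in hippocampus (left) and cortex (right) for the tested genes of 6 lists, 1 point per gene, red if called and open if not, with the list median as a bar. Red points gather in the 2 oxidase columns, with 1 other red point in the cortex, and the medians of the remaining lists lie between -0.05 and 0.17.

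The genes whose log2 CPM followed each of the 6 most closely over the 27 libraries were named by Pearson's r, which here mainly contrasts treated with control libraries. Cybb was closest to AB124611 (0.959), H2-Q4 (0.958) and Ms4a6b (0.958), and Cyba to Syngr2 (0.969), Tmem176a (0.963) and H2-D1 (0.963). Ncf1 was closest to Cd52 (0.982), Fyb (0.981) and Fcer1g (0.981), the last encoding the Fc receptor gamma chain. Ncf4 was closest to Cd14 (0.968), Tlr2 (0.958) and Apobec3 (0.952). Hmox1 was nearest to Nlrp3 (0.927), Tnfrsf1a (0.926) and Sbno2 (0.924). Nos2 had no gene as close, with Ano6 at 0.792, Sbno2 at 0.772 and Il11 at 0.763.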

How the data were processed

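The table deposited by the authors holds unnormalized counts per gene for all 27 libraries. Paired-end reads of stranded mRNA libraries were aligned to GRCm38 with STAR, and the counting program, annotation and strand setting are not given in the sources used here. Of 55487 gene IDs, 55227 matched GENCODE M21. In R 4.3.3, genes reaching 10 counts in 4 or more libraries were tested with edgeR 4.0.16 (TMM, quasi-likelihood, 6 groups, no covariate), and calls needed an adjusted p under 0.05 and a fold above 2 (the adjusted p alone for interactions). The study's methods use DESeq2, which was run as an alternative (version 1.42.0). Log2 CPM used a prior count of 1, and CPM are not per length. The relative fits used as offset the mean log2 CPM of the markers in a library. The tests were checked on simulated counts.

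The 6 genes and the gene lists were chosen with earlier results of these data known. From each list, up to 3 called genes with the smallest adjusted p were named, plus Rac2, Nos1, Nos3, Hmox2, Nfe2l2, and Nqo1, and other genes were named after their values were seen, as were the motifs. Some genes of the lists are counted but not reported here by name. The correlation over genes between the deviations of a mouse's 2 tissues ran from -0.0498 to 0.443 in 13 mice (median 0.194, above 0.1 in 8), so the mouse number comes from the labels and was used as a block only as an alternative. In 48 pairs of libraries of the same group, chi-square per degree of freedom was at least 4.54, so no library repeated another of its group.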

Additional observations from a re-analysis of the deposited data

Results flagged for a closer look

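Of the 36 sets of 1 gene in 1 group, 3 held a library whose gap to its nearest neighbor was an unusually large share of the range of the group (Dixon's criterion at 95%), and chance flags about 1 in 20 groups. Hmox1 was at 25.7 CPM in the α-IgLON5#1 cortex of mouse 8, with the other libraries of the group between 4.46 and 6.10 CPM (gap over range 0.923). Nos2 was at 2.72 CPM in the same library, against 0.357 to 0.681 CPM in the others (gap over range 0.863). Cyba was at 5.20 CPM in the PBS cortex of mouse 38, against 3.82 to 4.20 CPM in the others (gap over range 0.725). Leaving that PBS library out changed no call of Cyba.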

How the results depend on the processing

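Within animals 8 to 17, 0 of the 6 genes were called against pCtrl in the hippocampus and 0 in the cortex, where 0.242% and 0.0444% of all genes were called higher, with fewer control libraries in the fit. Leaving out each library in turn gave 3 to 5 called genes in the cortex against pCtrl, and 3 to 5 relative to homeostatic microglia markers in the cortex against either control, the 3 being without mouse 8. Relative to the pan-myeloid markers, 1 gene was called in the hippocampus against pCtrl, 2 against PBS, and 1 in the cortex against either. The second against PBS was Nos2, called lower as were 95.9% of all genes. On this scale the median of all genes stood at -1.69 (pCtrl) and -1.90 (PBS) in the hippocampus. In the cortex it stood at -1.38 (pCtrl) and -1.54 (PBS). There the log2 differences of Cyba, Ncf1, and Hmox1 turned to -0.37, -0.11, and -0.79 (hippocampus, pCtrl), -0.26, -0.15, and -0.90 (hippocampus, PBS), -0.33, -0.075, and -0.16 (cortex, pCtrl) and -0.46, -0.12, and -0.34 (cortex, PBS), and those of Nos2 against pCtrl to -0.89 in the hippocampus and -0.52 in the cortex, and to -0.93 in the cortex against PBS. In fits added after seeing the data, Cybb relative to the pan-myeloid markers in the hippocampus against pCtrl ran from 0.54 to 1.34 with α-IgLON5#1 libraries left out in turn, and was not called without mouse 8 or mouse 17. Counted over the 6 genes and both directions, these fits called 0 to 2 genes in the hippocampus against pCtrl, 2 to 3 against PBS, and 1 to 2 in the cortex against either, the highest counts being without mouse 8, where Nos2 or Hmox1 was called lower. Of all genes, 91.4% to 96.3% were called lower in the hippocampus and 79.1% to 94.8% in the cortex. Called higher were 0.498% to 0.927% and 0.587% to 1% of all genes. With libraries left out in turn, Nos2 in the cortex against PBS ran from -0.22 to 1.13, the interactions against pCtrl from -0.59 to 0.15 for Ncf4, from -0.57 to 0.78 for Nos2 and from -0.84 to 0.41 for Hmox1, and Nos2 relative to microglia markers from -0.079 to 1.48 (cortex, pCtrl), from -0.41 to 1.15 (cortex, PBS) and from -0.48 to 0.092 (hippocampus, PBS). With the mouse as a replicate block, the Nos2 interaction was 0.048 (edgeR, adjusted p = 0.984), and the block changed no call. DESeq2, its size factors, no filter, a stricter filter, and no fold threshold moved no count of called genes by more than 1.5 times. The stricter filter (at least 10 counts in every library) left Ncf4 and Nos2 untested, as their lowest libraries held 9 and 7 counts. A test for genes under the main filter was not run, since all 6 passed it. Nos2 held 7 to 100 counts per library, which limits the precision of its values.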
